A study of Mus musculus with 2 samples.

Results

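The sodium-potassium ATPase moves sodium out of cells and potassium in, and 7 genes for its smaller subunits were followed through the cell types of the mouse dorsal root ganglion (DRG). They are Atp1b1 and Atp1b2, which encode beta subunits, and Fxyd1, Fxyd2, Fxyd3, Fxyd6 and Fxyd7, which encode FXYD regulators. The genes were taken by symbol from the 32285 genes listed for both samples, and all 7 were found and passed the filter on low counts. The catalytic alpha subunits are not among the 7.

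The series is single-cell RNA sequencing (10x 3' v3.1) of the L4 and L5 DRG of naive female C57BL/6 mice 3 months old. It holds 2 samples of this 1 group, replicates 1 and 2, which the study calls biological replicates. The number of animals behind each was not given in the sources used here, so every p below measures only the spread between these 2 samples. Ganglia were dissociated with papain and collagenase and sorted for live cells, so the shares of cells recovered need not be those of the tissue. There was no treatment, and the comparison the design allows is between cell types within the samples.

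Of 1762921 and 1832899 barcodes, 8354 and 8218 were kept as cells, and 135 barcodes were called as cells in both samples. Cells were clustered without the 7 genes and without the marker pairs the study used, and clusters were named by longer marker lists built around those pairs, whose other genes took part in the clustering. Clusters of 324, 278 and 209 cells with mixed markers or high mitochondrial counts were removed. This gave satellite glial cells (SGCs, 3524 and 3365 cells in replicates 1 and 2), non-myelinating Schwann cells (NMSC, 717 and 785) and myelinating Schwann cells (MSC, 1621 and 1651). It also gave neurons (358 and 168), fibroblasts (533 and 761), mural cells (381 and 309), macrophages (269 and 242) and endothelial cells (186 and 228). The group named macrophages also held markers of neutrophils and of monocytes or dendritic cells, at levels given below. A cluster of 1474 cells led by Pou3f1 met no naming rule and was left unnamed. No gene of any type's own marker list was at 0 in that type. This does not separate types, since in SGCs the macrophage, endothelial and neuron lists had no gene at 0 either. Unique molecular identifiers (UMIs, each 1 captured transcript) were summed per sample and type, giving 3185108 to 55733827 UMIs a profile. Neurons were shallow as a class, with a median of 904.5 and 1176 UMIs a cell, but 53 and 51 of them held over 20000 UMIs each.

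As background, a working pump is an alpha subunit, which carries the ions and splits ATP, joined to a beta subunit, which brings the alpha subunit to the cell surface and tunes its affinity for potassium. FXYD proteins are small single-pass membrane proteins that sit beside the alpha subunit and shift its affinity for sodium or potassium, each in its own way. In a sensory ganglion the pump restores the ion gradients of firing neurons, and the glia wrapped around each neuron take up potassium from the narrow space between them.

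The family is named after a short amino acid signature, and the DNA that encodes it shows how far the 5 regulators have diverged while keeping it. The lines below give, 5' to 3' on the coding strand of GRCm38 (mm10), the 30 bases around the signature of each regulator, with the 12 bases that encode phenylalanine, any residue, tyrosine and aspartate in capitals.
Fxyd1: ccggatccaTTCACCTACGATtaccacacc
Fxyd2: gagaatcccTTCGAGTACGACtatgaaacc
Fxyd3: aatgatcctTTCTACTATGATtggtacagc
Fxyd6: aaggatcctTTCTATTACGACtaccagacc
Fxyd7: acagatcctTTTTTCTATGACtatgccact
In all 5 genes an exon junction splits these bases. The 2 pieces lie within chr7:31053464-31053911 on the minus strand for Fxyd1 (exons 3 and 4 of 8) and within chr9:45408126-45408310 on the plus strand for Fxyd2 (exons 2 and 3 of 6). They lie within chr7:31071356-31072093 on the minus strand for Fxyd3 (exons 4 and 5 of 8), within chr9:45390654-45390787 on the plus strand for Fxyd6 (exons 3 and 4 of 8) and within chr7:31045017-31047391 on the minus strand for Fxyd7 (exons 2 and 3 of 6). The second codon, the variable one, differed between all 5. Pairs of regulators shared 7 to 10 of the 12 signature bases and 17 to 22 of the 30 bases. The most alike over 30 bases were Fxyd6 with Fxyd1 and Fxyd6 with Fxyd2, at 22 each. The reading frames hold 64 codons in Fxyd2, 80 in Fxyd7, 88 in Fxyd3, 92 in Fxyd1 and 94 in Fxyd6.

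The genes divided the ganglion's cell types between them. Fxyd2, Fxyd7 and Atp1b1 were highest in neurons, Fxyd3 and Fxyd6 in myelinating Schwann cells, Fxyd1 in non-myelinating Schwann cells and Atp1b2 in mural cells. The order of the 8 types was close to the same in both samples, with a rank correlation of 0.90 to 1.00 for each gene over the 8 types, given as a description. Levels are in UMIs per 1000000 UMIs (CPM), scaled by edgeR's trimmed mean of M values (TMM). The chemistry reads transcript 3' ends, so a level is compared between types for 1 gene and not between genes. The macrophage profile held 8975 and 7651 CPM of macrophage markers, without TMM, in replicates 1 and 2. It also held 4252 and 1799 CPM of neutrophil markers and 6121 and 5512 of monocyte or dendritic cell markers. SGC markers stood at 2134 and 2957 CPM in it, and erythrocyte markers at 5382 and 6.35. Values for macrophages are those of this whole profile, and the part of other cells in them was not tested.

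**Figure D1:**
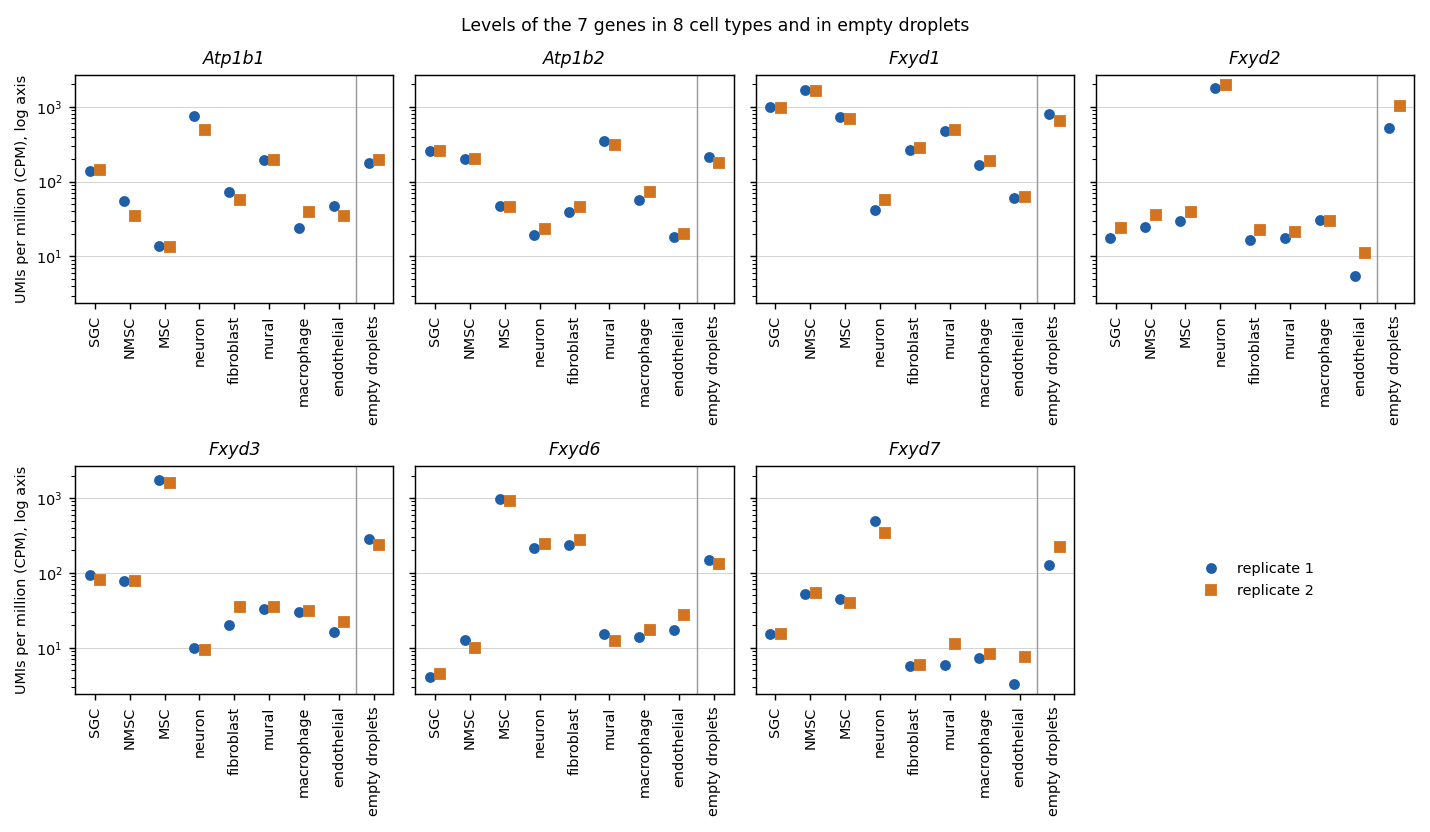
Level of each gene in the 8 cell types and in empty droplets, which stand right of the grey line. The vertical axis is CPM on a log scale, circles are replicate 1 and squares replicate 2. The mean of the top type stands 53.6-fold above that of the next type for Fxyd2 and 19.3-fold for Fxyd3, against 1.28-fold for Atp1b2.

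Each type was then compared with the mean of the other 7, and log2 differences with their standard errors (SE) come from edgeR's quasi-likelihood test over 18048 genes, with p-values adjusted by Benjamini-Hochberg over all of them. Of the 56 pairs of gene and type, 20 were called higher, 31 lower and 5 neither. Many genes of the table also differ between types, and the share of all genes called stands beside each count. In SGCs, 4 of the 7 genes were called higher and 3 lower, against 32.0% and 24.0% of all genes. In non-myelinating Schwann cells the counts were 4 higher and 2 lower against 19.9% and 18.5%, and in myelinating Schwann cells 4 and 2 against 26.8% and 25.2%. In neurons they were 4 and 3 against 36.9% and 31.0%, in fibroblasts 1 and 5 against 26.0% and 21.5%, and in mural cells 3 and 4 against 21.4% and 19.8%. Macrophages had 0 higher and 5 lower against 26.4% and 27.5%, and endothelial cells 0 higher and 7 lower against 25.8% and 25.0%. In neurons the median log2 difference of the 7 genes was 2.73, beside 0.00 over all genes, and in endothelial cells it was -2.16, beside -0.10.

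These splits of all genes lean on the scaling. The share of higher calls among all calls in SGCs was 57.1% with TMM, 43.8% without it and 43.6% with DESeq2. By the TMM factors, leaving them out shifts every gene by -0.16 on the log2 scale in SGCs, 0.13 in non-myelinating Schwann cells and -0.13 in macrophages. None of the 56 directions turned under either scaling. The reference also matters. With all other cells summed into 1 profile, in which each type counts by its UMIs, 13 pairs were called higher in place of 20.

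**Figure D2:**
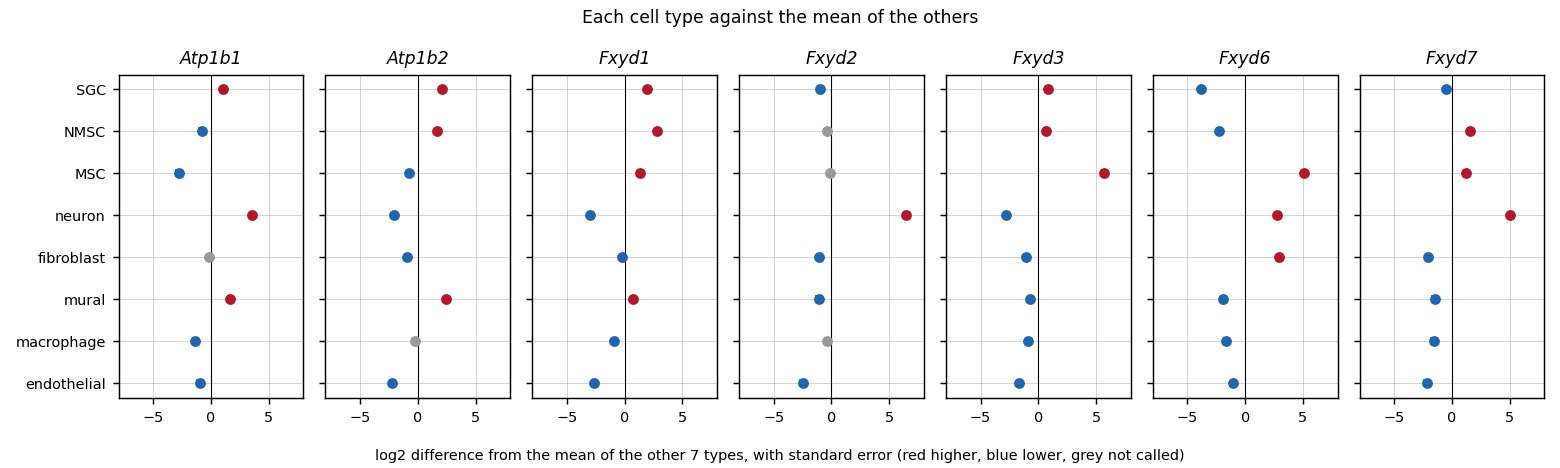
Log2 difference of each gene between each cell type and the mean of the other 7 types, from edgeR's fit. Bars are 1 SE and are mostly narrower than the points. Red points were called higher, blue points lower and grey points neither, and the differences run from -3.83 for Fxyd6 in SGCs to 6.44 for Fxyd2 in neurons.

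Atp1b1 encodes the beta1 subunit, the beta subunit found most widely in the body. In neurons it measured 743 and 496 CPM in replicates 1 and 2 (619.6 ± 175, SD, n = 2), the largest SD of any type. Mural cells followed at 193 and 195 CPM, and SGCs at 137 and 141 CPM. The 2 neuron values lay above all others, and the levels of neurons, mural cells and SGCs did not overlap. Fibroblasts held 71.7 and 57.6 CPM, non-myelinating Schwann cells 54.5 and 35.1, endothelial cells 46.6 and 34.3, macrophages 24.2 and 39.4 and myelinating Schwann cells 13.6 and 13.3. Non-myelinating Schwann cells overlapped endothelial cells, and endothelial cells overlapped macrophages. Its log2 difference was 3.52 in neurons (SE 0.12, edgeR adjusted p = 2.49e-13), 1.61 in mural cells (SE 0.15, edgeR adjusted p = 1.87e-07) and 1.06 in SGCs (SE 0.14, edgeR adjusted p = 6.61e-06). At the other end it was -2.79 in myelinating Schwann cells (SE 0.21, edgeR adjusted p = 1.16e-08). With all other cells as 1 profile, the SGC difference was 0.24 (edgeR adjusted p = 0.260) and was no longer called. From the bottom of the order to the top the means spanned 46.1-fold.

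Atp1b2 encodes the beta2 subunit, known from glia of the brain as an adhesion molecule as well as a pump subunit. Its level was low in neurons, where Atp1b1 was highest. Mural cells held 345 and 308 CPM (326 ± 26.5, SD, n = 2), SGCs 255 and 254, and non-myelinating Schwann cells 201 and 203. Neurons held only 19.4 and 23.5 CPM and endothelial cells 18 and 19.7, and the values of these last types overlapped. Macrophages lay between at 57.4 and 72.5 CPM, with myelinating Schwann cells at 46.9 and 45.3 and fibroblasts at 38.8 and 45.4, which overlapped. The mural, SGC and non-myelinating Schwann cell levels were each separate from the rest, with log2 differences from the mean of other types of 2.46 (SE 0.07), 2.05 (SE 0.07) and 1.66 (SE 0.07). In neurons the difference was -2.03 (SE 0.11, edgeR adjusted p = 6.20e-11). The macrophage difference of -0.21 was not called (edgeR adjusted p = 0.0862), but was called lower under 5 alternatives, among them leaving out cells called doublets (-0.70). Per 100 UMIs of the 9 SGC markers, Atp1b2 had 2.01 and 1.78 UMIs in empty droplets and 1.61 and 1.55 in SGCs. Macrophages had 2.45 and 2.29, endothelial cells 2.32 and 2.14 and neurons 2.78 and 2.10. Fibroblasts had 4.38 and 4.11, both kinds of Schwann cell 4.89 to 9.28 and mural cells 42.3 and 23.8. The part of RNA from empty droplets or SGCs in the low Atp1b2 values was not tested.

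The pair of beta subunits can be put on 1 scale as the share of their summed UMIs that came from Atp1b2, which is read across types only. The share was 81.9% ± 4.67 in non-myelinating Schwann cells, 77.4% ± 0.145 in myelinating Schwann cells, 67.6% ± 3.92 in macrophages, 64.7% ± 0.469 in SGCs and 62.7% ± 2.03 in mural cells (SD, n = 2 in each). It was 39.6% ± 6.35 in fibroblasts, 32.2% ± 6.07 in endothelial cells and 3.54% ± 1.4 in neurons. The neuron share lay below that of every other type in both samples. Without cells called doublets the endothelial share fell to 20.3%. The remaining widely used beta subunit gene, Atp1b3, which is not one of the 7, held 91.5% of the UMIs of the 3 beta genes in myelinating Schwann cells and 87.9% in endothelial cells, the 2 types with the least Atp1b1 and Atp1b2 together. It held 27.5% in SGCs, 23.0% in non-myelinating Schwann cells and 11.5% in mural cells.

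Fxyd1 encodes phospholemman, the regulator best known from heart and skeletal muscle, and it was the one most broadly present in glia. Non-myelinating Schwann cells held 1678 and 1618 CPM (1648 ± 42.5, SD, n = 2), SGCs 1004 and 959, and myelinating Schwann cells 718 and 690. All 3 glial types lay above all other types. Mural cells held 476 and 495 CPM, fibroblasts 261 and 278, macrophages 164 and 186, endothelial cells 60.7 and 63.0 and neurons 41.2 and 56.1. No neighbours in this order overlapped, the only gene of the 7 for which that was so. The share of all genes with such an order was not taken, so this is a description only. Log2 differences were 2.77 in non-myelinating Schwann cells (SE 0.07, edgeR adjusted p = 5.56e-14), 1.92 in SGCs (SE 0.07), 1.37 in myelinating Schwann cells (SE 0.07) and -3.04 in neurons (SE 0.11). Against all other cells as 1 profile, the myelinating Schwann cell difference was 0.05 (edgeR adjusted p = 0.349) and the mural difference turned from 0.76 to -0.55. The fibroblast difference of -0.21 (edgeR adjusted p = 0.0431) was lost under 9 alternatives and measured -0.01 without cells called doublets.

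Fxyd2 encodes the gamma subunit of the pump, first described in kidney. Neurons held 1773 and 1957 CPM (1865 ± 131, SD, n = 2), and all other types lay between 5.41 and 39.4 CPM. Neurons accounted for 85.2% of all Fxyd2 UMIs of the 8 types, although only 358 and 168 of the cells were neurons. The log2 difference of neurons was 6.44 (SE 0.11, edgeR adjusted p = 2.52e-17). Among the remaining types 4 neighbouring pairs overlapped. SGCs (17.7 and 23.7 CPM), fibroblasts (16.8 and 22.7), mural cells (17.4 and 21) and endothelial cells (5.41 and 11.3) were called lower than the mean of others. Myelinating Schwann cells (30.1 and 39.4 CPM, log2 difference -0.13), non-myelinating Schwann cells (24.6 and 35.6, -0.36) and macrophages (30.9 and 29.3, -0.37) were not. With the replicate as a block, the last 2 of these were called lower (edgeR adjusted p = 0.0167 and 0.0274).

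Part of the low Fxyd2 signal outside neurons may be compared with the RNA free in the suspension. Empty droplets held 516 and 1033 CPM of Fxyd2. Per 100 UMIs of 10 neuron marker genes, Fxyd2 had 24.1 and 24.7 UMIs in empty droplets, 19.6 and 19.4 in SGCs, 18.8 and 19.2 in myelinating and 26.0 and 23.5 in non-myelinating Schwann cells, and 10.5 and 13.1 in neurons themselves. The ratio in the 3 glial types therefore lay near that of empty droplets and above that of neurons. The estimated share of such RNA in a profile was 1.47% to 5.56%, and when it was subtracted, the SGC difference of Fxyd2 turned to 1.2 with an edgeR adjusted p of 0.829 and the lower calls in fibroblasts, mural cells and endothelial cells were lost. Its part in the low Fxyd2 values was not tested further.

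Fxyd7 encodes a regulator known from brain, where it is found in neurons and glia. Neurons held 501 and 344 CPM (422 ± 111, SD, n = 2), with both values above all other types. Non-myelinating Schwann cells held 51.8 and 53.3 CPM and myelinating Schwann cells 44.8 and 39.1, SGCs 15.1 and 15.2, and mural cells, macrophages, fibroblasts and endothelial cells 3.31 to 11.2. Both kinds of Schwann cell thus stood above SGCs without overlap. Log2 differences were 5.0 in neurons (SE 0.11, edgeR adjusted p = 6.07e-16), 1.56 in non-myelinating Schwann cells (SE 0.15, edgeR adjusted p = 4.75e-07), 1.19 in myelinating Schwann cells (SE 0.14, edgeR adjusted p = 3.45e-06) and -0.49 in SGCs (SE 0.15, edgeR adjusted p = 0.0102). With all other cells as 1 profile, the Schwann cell differences were 0.41 (edgeR adjusted p = 0.0727) and 0.07 (edgeR adjusted p = 0.717). Fxyd7 per 100 neuron marker UMIs was 54.6 and 35.3 in non-myelinating Schwann cells and 28.0 and 19.1 in myelinating Schwann cells, above 5.92 and 5.23 in empty droplets and 2.97 and 2.31 in neurons. Every other type also lay above the empty droplets, with SGCs at 16.7 and 12.4. Mural cells, macrophages, fibroblasts and endothelial cells ran from 7.01 to 10.9. The ratio therefore does not set Schwann cells apart, and the part of free RNA in these values was not tested further. Empty droplets held 127 and 219 CPM, and after subtraction of their RNA the SGC difference of Fxyd7 turned to 0.64 (edgeR adjusted p = 0.0902).

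Fxyd3 encodes a regulator, also called Mat-8, known from epithelia and tumours of epithelial origin. Myelinating Schwann cells held 1762 and 1606 CPM (1684 ± 110, SD, n = 2), and the next type, SGCs, held 93.4 and 81.1. Non-myelinating Schwann cells followed at 78.7 and 78.0 CPM, then mural cells at 33.1 and 35.2, macrophages at 30.3 and 30.8, fibroblasts at 20.1 and 34.5, endothelial cells at 16.2 and 21.8 and neurons at 9.95 and 9.38. Myelinating Schwann cells held 76.1% of the Fxyd3 UMIs of the 8 types, and no other type came within 10 times their level. The log2 difference was 5.70 in myelinating Schwann cells (SE 0.09, edgeR adjusted p = 2.46e-16). SGCs and non-myelinating Schwann cells were called higher than the mean of others (0.82 and 0.65), but against all other cells as 1 profile both turned, to -2.13 and -1.53. In SGCs, Fxyd3 made 9.17 and 7.92 UMIs per 100 UMIs of MSC markers, beside 8.71 and 7.56 in myelinating Schwann cells and 9.16 and 7.88 in empty droplets. In non-myelinating Schwann cells the ratio was 4.47 and 4.24. The part of MSC RNA in these lower values was not tested further.

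Fxyd6 encodes phosphohippolin, a regulator named from the hippocampus. It was called higher in 3 unlike types. Myelinating Schwann cells held 958 and 901 CPM (929 ± 40.5, SD, n = 2), fibroblasts 238 and 274, and neurons 213 and 242. Fibroblasts and neurons overlapped, and both lay apart from the remaining 5 types, which held 4.07 to 27.4 CPM. SGCs, at 4.07 and 4.41 CPM, had the lowest level of any type, 219-fold under myelinating Schwann cells. Log2 differences were 5.05 in myelinating Schwann cells (SE 0.08, edgeR adjusted p = 2.46e-16), 2.93 in fibroblasts (SE 0.09, edgeR adjusted p = 9.97e-14), 2.73 in neurons (SE 0.09, edgeR adjusted p = 1.61e-13) and -3.83 in SGCs (SE 0.14, edgeR adjusted p = 1.53e-12). Empty droplets held 149 and 133 CPM. Per 100 UMIs of MSC markers, Fxyd6 had 4.79 and 4.38 UMIs in empty droplets, 56.1 and 55.6 in neurons and 61.2 and 46.8 in fibroblasts, so the ratio in those types lay over 10 times above that of the free RNA. In SGCs it was 0.40 and 0.43, below the free RNA, but SGCs also held 915 and 934 CPM of MSC markers, without TMM. Free RNA was estimated at 1.47% and 2.14% of the SGC profiles. Its part in the low SGC level, on which the 219-fold difference rests, was not tested further.

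**Figure D3:**
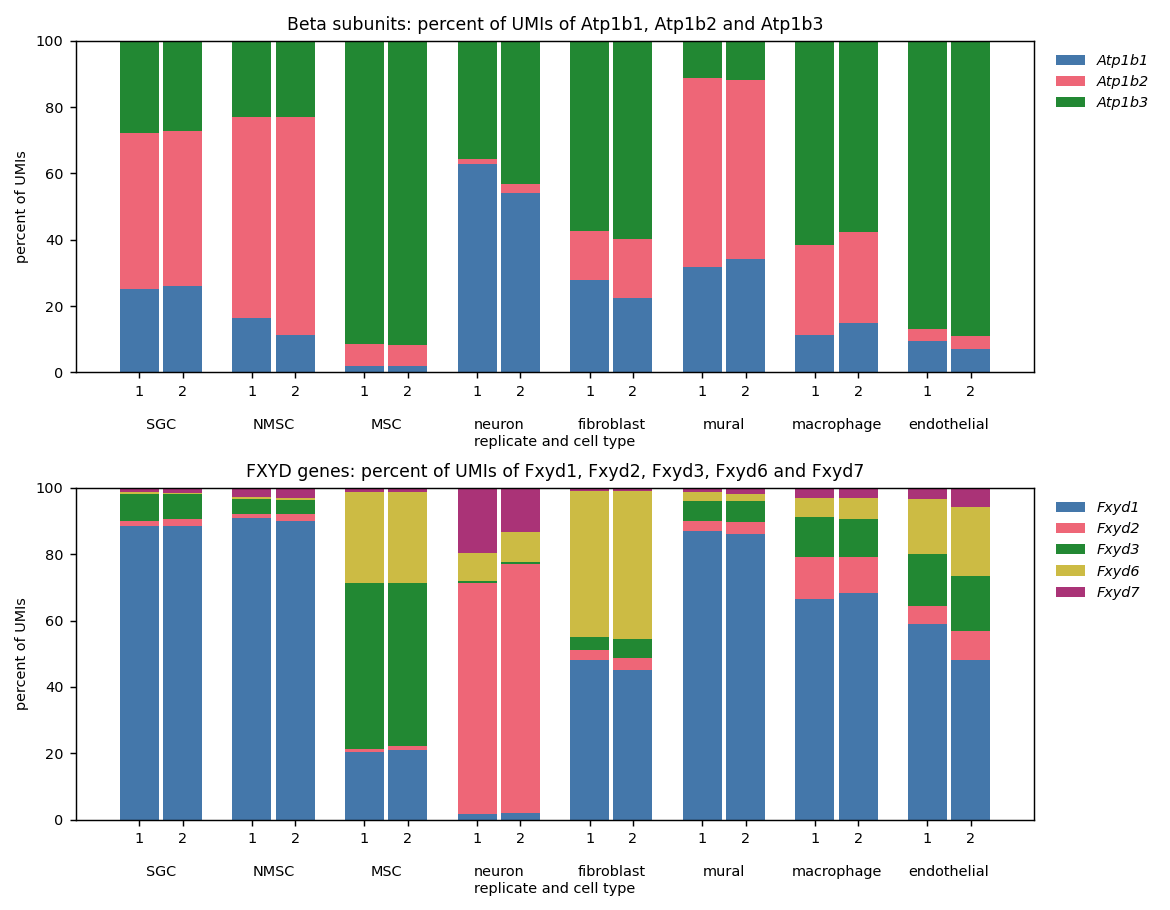
Make-up of the UMIs of 3 beta subunit genes (top) and of 5 FXYD genes (bottom) in each cell type, in percent of their summed UMIs, with 1 stacked bar per replicate. Averaged over the 2 replicates, Fxyd1 takes 88.5% of the FXYD UMIs in SGCs and 90.5% in non-myelinating Schwann cells, and Fxyd2 takes 72.4% in neurons.

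Put together, the 5 regulators gave mixtures that were alike in some types and differed in others, and the shares are read across types only. Fxyd1 made up 90.5% of their summed UMIs in non-myelinating Schwann cells, 88.5% in SGCs and 86.5% in mural cells. In myelinating Schwann cells, Fxyd3 made up 49.6%, Fxyd6 27.4% and Fxyd1 20.8%. In neurons, Fxyd2 made up 72.4% ± 3.67, Fxyd7 16.5% ± 4.64 and Fxyd6 8.82% (SD, n = 2). Fibroblasts were split between Fxyd1 at 46.7% and Fxyd6 at 44.3% of these 5 genes. Fxyd5, a regulator that is not one of the 7 and is also called dysadherin, made up 68.7% of the FXYD UMIs of endothelial cells and 61.7% of those of macrophages once it was added to the sum, and at most 1.77% in neurons and the 3 glial types. In fibroblasts it made up 41.9% ± 5.37 (SD, n = 2), which left 27.1% to Fxyd1 and 25.7% to Fxyd6. Endothelial cells and macrophages, where none of the 7 genes was called higher, thus drew most of their FXYD UMIs from a gene outside the set.

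Types were also compared in 5 pairs, with 30 of 35 comparisons called, 17 of them among the 21 between glial types. With equal numbers of cells in every type, 25 of the 35 were called. Between SGCs and non-myelinating Schwann cells 5 of the 7 genes were called, against 30.5% of all genes. Atp1b1 was higher in SGCs by 1.64 on the log2 scale (SE 0.22), while Fxyd1 was lower by a log2 difference of -0.75 (SE 0.10), Fxyd6 by -1.39 (SE 0.20) and Fxyd7 by -1.79 (SE 0.18). The Fxyd6 call was lost with equal numbers of cells (-1.46, SE 0.65, edgeR adjusted p = 0.153). The Atp1b2 difference was small, 0.34 (SE 0.10, edgeR adjusted p = 0.0197), and was not called with equal numbers of cells, with the RNA of empty droplets subtracted or with the Pou3f1-led cluster counted as SGCs. Fxyd3 differed by 0.15 (SE 0.16, edgeR adjusted p = 0.521). Fxyd2 differed by -0.55 (edgeR adjusted p = 0.0593), and by -0.54 with the replicate as a block (edgeR adjusted p = 0.00324). All genes shifted by -0.26 on the log2 scale in this pair without TMM, and the share of calls that were higher moved from 59.1% to 29.2%.

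Between SGCs and myelinating Schwann cells all 7 genes were called, against 49.7% of all genes. Fxyd6 was lower in SGCs by a log2 difference of -7.77 (SE 0.17) and Fxyd3 by -4.27 (SE 0.17), while Atp1b1 was higher by 3.37 (SE 0.24), Atp1b2 by 2.47 (SE 0.11) and Fxyd1 by 0.48 (SE 0.10). Fxyd7 was at -1.47 (SE 0.17) and Fxyd2 at -0.75 (SE 0.19), but the Fxyd2 call was lost with equal numbers of cells (-0.20, edgeR adjusted p = 0.742) and with the RNA of empty droplets subtracted (edgeR adjusted p = 0.781). Between the 2 kinds of Schwann cell 5 were called, against 36.7% of all genes. Fxyd6 stood at -6.38 (SE 0.18) and Fxyd3 at -4.43 (SE 0.17) in non-myelinating against myelinating cells, and Atp1b1, Atp1b2 and Fxyd1 at 1.73, 2.13 and 1.23. The Atp1b1 call was lost with equal numbers of cells (1.46, edgeR adjusted p = 0.0607). Fxyd7 (0.33, SE 0.18) and Fxyd2 (-0.20) were not called.

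Neurons and SGCs, which lie against each other in the ganglion, differed in all 7 genes, against 65.8% of all genes. In neurons against SGCs, Fxyd2 stood at 6.49 on the log2 scale (SE 0.22), Fxyd6 at 5.74 (SE 0.16), Fxyd7 at 4.80 (SE 0.18) and Atp1b1 at 2.15 (SE 0.20). Fxyd1 stood at -4.34 (SE 0.12), Atp1b2 at -3.57 (SE 0.12) and Fxyd3 at -3.17 (SE 0.20). The 9 SGC marker genes together held 702 and 1158 CPM in neurons, beside 14222 and 14939 in SGCs, and their part in the neuron values was not tested. Of the vessel types, mural cells exceeded endothelial cells in Atp1b2 by 4.11 (SE 0.14), Fxyd1 by 2.97 (SE 0.12) and Atp1b1 by 2.27 (SE 0.24), and 6 of the 7 genes were called against 41.5% of all genes. The Fxyd3 call in that pair (0.83, edgeR adjusted p = 0.00685) turned to -0.25 without cells called doublets (edgeR adjusted p = 0.613).

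The share of single cells with at least 1 UMI was taken at equal depth, by thinning cells to 1000 UMIs and leaving out those with fewer. These shares cover counting error only. Fxyd1 was seen in 81.0% and 82.3% of non-myelinating Schwann cells, 59.1% and 57.8% of SGCs and 48.9% and 47.1% of myelinating Schwann cells, against 9.42% and 4.40% of neurons. Fxyd3 was seen in 69.4% and 65.8% of myelinating Schwann cells against 8.34% and 7.73% of SGCs. Fxyd6 was seen in 59.9% and 58.5% of myelinating Schwann cells and 0.341% and 0.357% of SGCs.

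For the beta subunits the shares were lower. Atp1b1 was seen in 34.8% and 34.1% of neurons, 13.6% and 11.7% of mural cells and 1.36% and 1.09% of myelinating Schwann cells. Atp1b2 was seen in 24.4% and 24.3% of mural cells, 19.2% and 19.6% of SGCs and 17.1% and 20.8% of non-myelinating Schwann cells. Detection of Fxyd2 in neurons thinned to 1000 UMIs was 58.0% of 138 cells and 29.7% of 91 cells, with 220 and 77 shallower neurons left out. Thinned to 2000 UMIs, it was 45.7% of 70 cells and 48.6% of 72 cells, with 288 and 96 left out. The difference between samples therefore hung on the depth. Without thinning, where depth is not equal, it was 80.4% and 53.6%. In the other types, detection of Fxyd2 was 1.09% to 4.39% with cells thinned to 1000 UMIs. Fxyd7 was seen in 18.1% and 9.89% of neurons and in 0 of 381 mural cells of replicate 1 at this depth, which allows up to 0.964% of cells with a UMI (exact binomial 95% limit), while without thinning 19 of the same cells had one (4.99%).

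**Figure D4:**
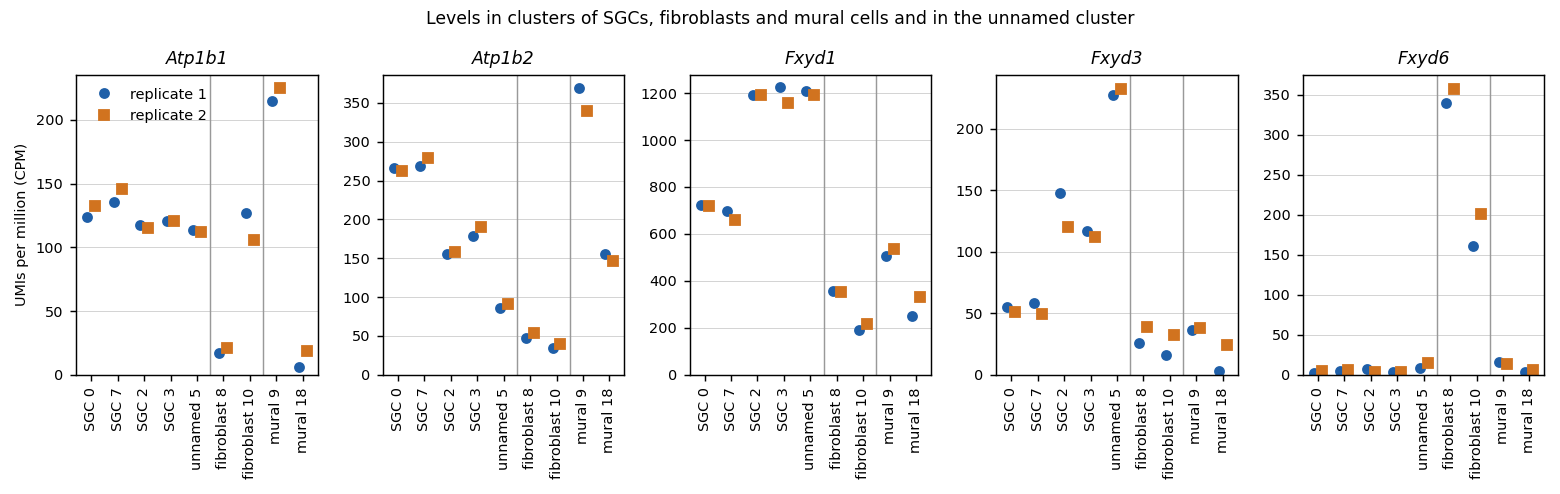
Level of 5 of the genes in the clusters behind SGCs, fibroblasts and mural cells and in the unnamed cluster, in CPM without TMM on axes that start at 0. Circles are replicate 1 and squares replicate 2, and the numbers only name the clusters. In the fibroblast clusters, Atp1b1 measures 16.9 and 20.8 CPM in one and 127 and 106 in the other.

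Types were not uniform inside. The values that follow are descriptions with no test, since clusters were formed from the same cells. SGCs fell into 4 clusters. A pair of them held 658 to 723 CPM of Fxyd1, 262 to 280 of Atp1b2 and 49.2 to 58.2 of Fxyd3, and the other pair held 1159 to 1227 of Fxyd1, 156 to 190 of Atp1b2 and 112 to 147 of Fxyd3. Atp1b1 varied less, from 115 to 146 CPM over the 4 clusters. One cluster of the second pair, with 1654 cells, had no SGC marker among its 10 leading genes, which held the NMSC marker Chl1, and carried 7 SGC markers among its 50. Without it the differences of SGCs from the mean of others stayed called in the same direction for all 7 genes, at 1.81 for Fxyd1, 2.17 for Atp1b2 and 0.58 for Fxyd3.

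Fibroblasts and mural cells each held a contrast in Atp1b1. In the fibroblast cluster led by Apod, Dcn and Gpc3 it measured 16.9 and 20.8 CPM, and in the one led by Igfbp6 and Mgp 127 and 106, a 6.17-fold difference of means. Fxyd1 and Fxyd6 ran the other way, at 357 and 351 against 191 and 217 CPM for Fxyd1 and at 340 and 357 against 161 and 201 for Fxyd6. Fxyd5 measured 27.8 and 31.9 CPM in the first and 878 and 815 in the second. Igfbp6, which leads the second, is also 1 of 7 markers of perineurial cells. Those 7 together held 2923 and 2641 CPM in the summed fibroblast profile. Whether the second cluster holds perineurial cells was not tested, so the contrast need not lie within fibroblasts. The larger mural cluster, of 639 cells, held 215 and 225 CPM of Atp1b1, and the smaller, of 52 cells, 6.47 and 18.9 CPM, from only 2 and 7 UMIs. Atp1b2 was 370 and 340 CPM in the larger against 155 and 146 in the smaller, and Fxyd1 507 and 534 against 249 and 330. In myelinating Schwann cells, Fxyd6 measured 841 and 800 CPM in one cluster and 1099 and 1037 in the other.

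Because most neurons were shallow, the 53 and 51 neurons above 20000 UMIs were taken apart. Summed, they held 756 and 518 CPM of Atp1b1, 220 and 251 of Fxyd6 and 518 and 362 of Fxyd7, above the shallow neurons of the same sample, which held 590 and 393, 121 and 222, and 264 and 210. Fxyd1, at 33.4 and 51.2 CPM in deep and 170 and 202 in shallow neurons, was higher in the shallow ones. Fxyd2 had no common direction, at 1583 and 2079 CPM in deep and 4957 and 750 in shallow neurons.

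**Figure D5:**
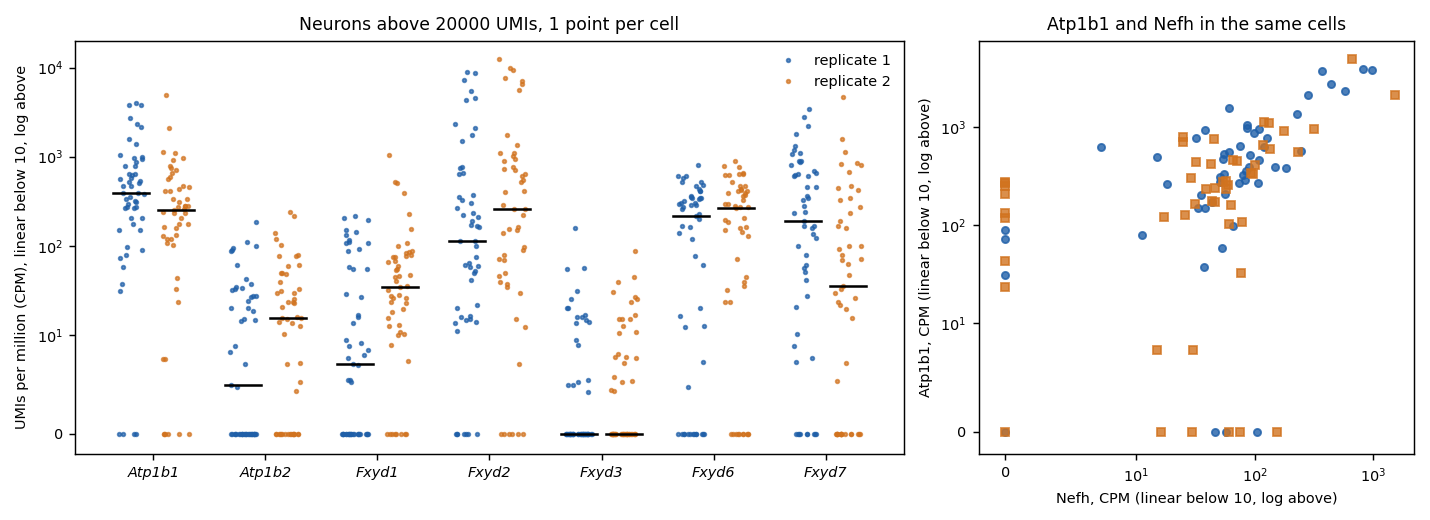
Left, level of each gene in single neurons above 20000 UMIs, 1 point per cell (53 cells of replicate 1, 51 of replicate 2), with black bars at the medians and a CPM axis that is linear below 10 and log above. Right, Atp1b1 against Nefh in the same cells on axes of the same kind. Fxyd2 runs up to 9021 and 12419 CPM while its medians are 114 and 257, and Atp1b1 rises with Nefh in the points of both replicates (Spearman 0.65 and 0.48).

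Within the deep neurons, Fxyd2 was concentrated in few cells. Its median was 114 and 257 CPM, its highest value 9021 and 12419, and the 10 highest cells of each sample held 91.5% and 90.5% of its UMIs. It reached 1000 CPM in 10 and 12 cells and stayed under 100 CPM in 25 and 20. Fxyd6 was spread more evenly, with medians of 216 and 266 CPM and highest values of 806 and 893. Atp1b1 had medians of 393 and 249 CPM and highest values of 3959 and 4923, and Fxyd7 medians of 188 and 35.6 and highest values of 3454 and 4634. Fxyd3 had a median of 0 in both samples.

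Spearman correlations across these cells among the 7 genes, with other pump genes and with genes that mark classes of sensory neuron are given as descriptions, with n = 53 and 51 cells that share a library and run from 22210 to 311121 UMIs. Of 189 pairs with a value in both samples, 15 had the same sign and a size of at least 0.4 in both samples, 9 positive and 6 negative. Atp1b1 went with Nefh, the heavy neurofilament of large neurons (0.65 and 0.48), and against Calca, which encodes the peptide CGRP (-0.51 and -0.45). Fxyd2 went against Foxp2 (-0.74 and -0.65), against Ntrk3, the receptor for neurotrophin 3 (-0.42 and -0.43), and against the cold channel gene Trpm8 (-0.43 and -0.40). Fxyd6 went with Ntrk2 (0.55 and 0.62) and with Th, tyrosine hydroxylase (0.51 and 0.49). The other markers of the same classes did not follow. Of those listed with Ntrk2, Nefh stood at -0.15 and -0.08, Pvalb at -0.27 and -0.28, Ntrk3 at 0.13 and -0.11 and Spp1 at 0.09 and -0.03. Of those listed with Th, Slc17a8 stood at 0.16 and -0.07 and P2ry1 at 0.17 and 0.03. Fxyd6 is thus not placed in a class of neuron here. Fxyd7 went with Tac1, the substance P precursor (0.40 and 0.43). Short of 0.4 in at least 1 sample, it also went with Nefh (0.54 and 0.31), Pvalb (0.33 and 0.34) and Calca (0.24 and 0.29). It is therefore not placed in 1 class of neuron here. Atp1b2 and Fxyd1, both low in neurons as a class, went with each other (0.61 and 0.66).

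Of the list of 15 other pump genes and relatives, chosen with earlier results of these data known, 10 were tested. In neurons 6 of them were called higher and 4 lower, to be read against the 36.9% and 31.0% of all genes given above and likewise in the other types, in SGCs 3 and 4, in non-myelinating Schwann cells 3 and 3, in myelinating Schwann cells 4 and 2, in fibroblasts 4 and 4, in mural cells 1 and 5, in macrophages 3 and 4 and in endothelial cells 3 and 3. Among those higher in SGCs were Nkain2 (1.53, SE 0.07) and Nkain4 (3.24, SE 0.10), genes for proteins that bind the pump, though Nkain2 was lower in SGCs than in non-myelinating (-1.55) and myelinating Schwann cells (-1.22).

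A list of 21 carriers, channels and pumps that use the sodium gradient or share in potassium and calcium balance was read the same way, against the same shares of all genes. In SGCs 9 were called higher and 8 lower, in non-myelinating Schwann cells 5 and 10, in myelinating Schwann cells 3 and 13, in neurons 10 and 8, in fibroblasts 10 and 6, in mural cells 11 and 3, in macrophages 7 and 4 and in endothelial cells 6 and 11. Between SGCs and non-myelinating Schwann cells 12 were higher in SGCs and 1 was lower, where 30.5% of all genes were called in either direction and the share of higher calls hangs on the scaling as given above. Slc1a3, a glutamate carrier driven by the sodium gradient, stood at 2.94 (SE 0.23), Slc4a4, which carries sodium with bicarbonate, at 2.52 (SE 0.17), and Slc12a2, which carries sodium, potassium and chloride, at 1.33 (SE 0.16). Kcnj10, the glial potassium channel that also served to name SGCs, stood at 1.07.

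The genes lie in 4 places of the genome, and 5 lie in 2 groups. On chromosome 7, Fxyd7 (ENSMUSG00000036578, chr7:31042513-31051467), Fxyd1 (ENSMUSG00000036570, chr7:31051678-31057199) and Fxyd3 (ENSMUSG00000057092, chr7:31068172-31076704) stand on the minus strand beside Fxyd5 (chr7:31032722-31042481). On chromosome 9, Fxyd6 (ENSMUSG00000066705, chr9:45370185-45396159) and Fxyd2 (ENSMUSG00000059412, chr9:45399669-45410278) stand on the plus strand, 3509 bases apart. Atp1b1 is at chr1:164437109-164458355 (ENSMUSG00000026576) and Atp1b2 at chr11:69599736-69605942 (ENSMUSG00000041329), both on the minus strand. Among the 7, neighbours differed in their type of highest level. Fxyd7 and Fxyd1, with 210 bases between them, were highest in neurons and in non-myelinating Schwann cells, and Fxyd6 and Fxyd2 in myelinating Schwann cells and in neurons.

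Spans that overlap limit some counts. Lgi4 on the opposite strand overlaps Fxyd3 by 2764 bases and measured 394 CPM in non-myelinating Schwann cells, 203 in SGCs and 105 in myelinating Schwann cells, an order unlike that of Fxyd3, though it shares its highest type with Fxyd1. Nme7 overlaps the end of Atp1b1 by 617 bases on the opposite strand and measured 16 to 53.1 CPM. Whether counting used strand was not given in the sources used here, and the part of these neighbours was not tested.

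The genes most like each member were found by the Pearson correlation of log2(CPM + 1) over the 16 profiles, among 10461 genes with a mean of at least 10 CPM, as a description. For Fxyd2 they were Tubb3 (0.99), Nefl (0.99) and Acot7 (0.98), and for Fxyd7 Dpysl2 (0.97), Kif5c (0.97) and Kif5a (0.96). For Fxyd3 they included Bcas1 (0.99) and Secisbp2l (0.98). For Fxyd6 they were Radil (0.92), Sh3gl3 (0.90) and Nfasc (0.90), and for Fxyd1 they included Bcl9 (0.98) and Cd59b (0.96). For Atp1b1 they were Borcs8 (0.96), Selenow (0.94) and Psma2 (0.94), and for Atp1b2 Nr2f1 (0.96), Nckap5 (0.95) and A830082K12Rik (0.94). Among the 7 themselves the highest values were 0.89 for Fxyd2 with Fxyd7 and 0.81 for Atp1b2 with Fxyd1, and the lowest was -0.64 for Atp1b1 with Fxyd3.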

How the data were processed

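The authors deposited raw UMI counts per gene and barcode for each sample, made with Cell Ranger 7.1.0 per the file headers and aligned to mm10 per the labels. Whether intronic reads and strand were counted was not given in the sources used here. The counts covered all barcodes, so cells were called again. Barcodes with at least 4613 and 4389 UMIs in replicates 1 and 2 were called from their totals alone, 7341 and 7515 of them. Those below with at least 500 UMIs, 2189 and 2306, were tested against the profile of empty droplets (ranks 45000 to 90000, 10000 simulations, FDR 0.01). Called barcodes with over 300 genes were kept, 8810 and 8766 barcodes. Cells beyond the median plus 5 median absolute deviations in mitochondrial percent (21.9%) or UMIs (46041, neurons exempt) were removed. Totals were 119101743 and 128668771 UMIs per sample, of which 90.1% and 86.5% lay in called cells.

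Cells were normalised with sctransform 0.4.2 and clustered in Seurat 5.3.0 (R 4.3.3, 30 principal components, resolution 0.8) after the 7 genes, the pathway lists and the marker pairs were taken out of the variable genes. Clusters were named for the type that had 3 or more markers among their 50 leading genes, unless the pairs and the lists pointed to different types or the cluster was marked by mitochondrial reads, which removed 3 clusters. Doublets were scored (cutoff 0.9, 3.37% and 3.50% of cells) but removed only in an alternative.

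UMIs were summed per sample and type. All profiles entered 1 fit in edgeR 4.0.16 (quasi-likelihood, TMM, a minimum of 10 counts in 2 or more profiles, prior count 0.125, 18048 genes), with Benjamini-Hochberg adjustment at 0.05. The fit was tested on simulated data. DESeq2 1.42.0 was an alternative. Other steps used Python 3.11.15, numpy 2.4.6, scipy 1.17.1 and pandas 2.3.3. Counts of the 2 samples differed beyond sampling noise in all 8 types (chi-square per degree of freedom 2.50 to 6.90), so neither was counted out. Types of 1 sample come from the same suspension and are therefore paired by replicate. The correlation of the sample differences between types was -0.07 to 0.26 over 28 pairs of types, with a median of 0.10, and the fit with the replicate as a block was an alternative.

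The 7 genes, the 2 pathway lists and the tests were chosen with earlier results of these data known. Genes named are the 7 in every type and sample, members of the lists, annotated neighbours within 10 kb and the 3 genes most correlated with each. Markers of neuron class were set in the same way. Positions come from GENCODE M21 on GRCm38, which held 32158 of 32285 identifiers. Some genes of the lists and neighbours are not reported here.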

Additional observations from a re-analysis of the deposited data

Results flagged for a closer look

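The cluster led by Pou3f1 (1474 cells kept) stood outside every comparison above because it met no naming rule, and the 7 genes were measured in it at levels above what a count of 0 allows (3 counts, 0.357 and 0.363 CPM in replicates 1 and 2). Fxyd1 averaged 1201 CPM over the 2 samples, beside 1192 and 1193 CPM in 2 of the SGC clusters and 722 and 678 CPM in the other 2 on the same scale. Fxyd3 averaged 229.9 CPM, beside 53.1 to 134 CPM in the SGC clusters and 1594 and 1733 CPM in the myelinating Schwann cell clusters, while Fxyd6, the other gene with its highest level in myelinating Schwann cells, averaged 11.5 CPM. Atp1b1 averaged 112.6 CPM and Atp1b2 88.2 CPM. Fxyd2 averaged 19.5 CPM and Fxyd7 19.7 CPM, both far under the neurons. Cluster levels carry no TMM scaling, no test was made, and which type these cells belong to was not settled.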

How the results depend on the processing

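Over the tested alternatives for each pair of gene and type and each pair of types, 1145 of 1197 comparisons kept their side of the threshold and, where called, their direction, 30 lost a call, 16 gained one and 6 turned. The count of higher calls was 13 with all other cells as 1 profile, against 20 as reported and in each other alternative that gave calls, and the lower count ran from 23 with the RNA of empty droplets subtracted to 39 with all other cells as 1 profile. With all other cells as 1 profile, Fxyd3 turned in SGCs (-2.13) and in non-myelinating Schwann cells (-1.53), and Fxyd1 turned in mural cells (-0.55). That profile weighs types by their UMIs. With the RNA of empty droplets subtracted, Fxyd7 (0.64) and Fxyd2 (1.2) turned in SGCs, with adjusted p in edgeR of 0.0902 and 0.829, and several Fxyd2 profiles came to 0 UMIs, so its fits there say little. Without cells called doublets, Fxyd3 turned between mural and endothelial cells (-0.25), the Atp1b2 share was 78.3% in myelinating Schwann cells and 20.3% in endothelial cells, and it was 85.6% in myelinating Schwann cells with the RNA of empty droplets subtracted. The cause of these changes was not tested.

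With the replicate as a block, the paired fit called 20 pairs higher, 33 lower and 31 of 35 differences between types, the added calls being those of Fxyd2 given above, and it changed no other call. Without replicate 1 or 2 the fit keeps 1 sample per type and gives values with no test. Of 182 such values 12 moved by more than the spread between replicates, and no called direction turned. The alternatives that counted the Pou3f1-led cluster as SGCs or left out 1 SGC cluster were chosen after seeing the data.

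Fxyd7 in endothelial cells and Atp1b1 in the small mural cluster rest on few UMIs, and 2 samples give no more than 1 degree of freedom for the spread within a type.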
